A study of Mus musculus with 23 samples.

Results

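Sciatic nerves (SNs) of mice that lost Dgcr8 in adult myelinating Schwann cells (SCs) were compared with SNs of their controls, in 6 of the 23 libraries of the series. The 3 inducible knockout (iKO) mice carried P0-CreERT2 -/+ and Dgcr8 flox/flox, and the 3 control mice carried P0-CreERT2 -/- and the same Dgcr8 flox/flox alleles, so that the floxed alleles were present in both groups and only the mutants carried Cre. All 6 mice were on the C57bl6 background and were sampled 3 months after tamoxifen (3 mpT), which was given in young adulthood to mutants and controls alike. The libraries were chosen by these genotype and treatment labels. The CreERT2 transgene is driven by a myelin gene promoter joined to untranslated parts of the connexin 32 gene, so recombination was directed to myelinating SCs, while the RNA came from the whole nerve with its other cells. The study found that some mutants had normal morphology and kept to morphologically affected mice, so the mutants were preselected animals. Libraries were stranded, ribosome-depleted total RNA, with 7887724 to 9881621 estimated counts in controls and 8127833 to 10143244 in mutants, and 3 counts equalled 0.296 to 0.38 CPM, the count scaled to library size. This limit covers counting error only.

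Dgcr8 is the double-stranded RNA-binding partner of the nuclease Drosha. Together they form the microprocessor, which cuts hairpins out of primary transcripts, and Dicer then trims these hairpins to mature microRNAs (miRNAs) that guide Argonaute proteins to matching sites, mostly in 3′ untranslated regions of mRNAs. Myelinating SCs wrap axons of the peripheral nerve, make large amounts of cholesterol and myelin protein, and after nerve injury turn into repair cells that lose myelin genes and secrete factors for neurons and macrophages. The question was which transcripts depend on Dgcr8 once myelin has been formed.

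The study lists predicted targets, taken from TargetScan, for miRNAs that are abundant in SN, among them let-7f, miR-10a, miR-10b and miR-143. The mature RefSeq sequences (GRCm38.p6) of the first 3 are shown because target prediction rests on their seeds, bases 2 to 8, written in capitals. The let-7f sequence is encoded at chr13:48537889-48537910 (minus strand) and again at chrX:151912353-151912374 (plus strand), miR-10a at chr11:96317186-96317208 (plus strand) and miR-10b at chr2:74726074-74726096 (plus strand).
mmu-let-7f-5p: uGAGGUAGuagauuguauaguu
mmu-miR-10a-5p: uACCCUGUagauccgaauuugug
mmu-miR-10b-5p: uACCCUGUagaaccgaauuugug
The miR-10 sequences share 1 seed, so their predicted targets are the same list.

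Counts were summed per gene, and 13252 of the 22880 genes listed passed the filter on low counts. With edgeR's quasi-likelihood test and Benjamini-Hochberg (BH) adjustment, a gene was called where its level changed 2-fold or more and its adjusted p did not exceed 0.05. In Dgcr8 iKO, 1778 genes (13.4%) were upregulated and 926 (6.99%) downregulated. The counts of called members given below for gene lists are to be read beside these 2 shares, and some lists lay near them. The upregulated genes reached farther: 763 rose by at least 2 on the log2 scale, 169 by at least 4 and 68 by at least 5, while 157 fell by at least 2, 6 by at least 4 and 0 by at least 5. The values of the mutants and controls did not overlap for 7402 genes (55.9%). The first principal component held 82.2% of the variance and separated the groups. Mutant 3 lay farthest from the controls for 1163 of the upregulated and 567 of the downregulated genes, and mutant 2 lay nearest for 1064 and 584, so the size of the response differed between the animals.

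**Figure D1:**
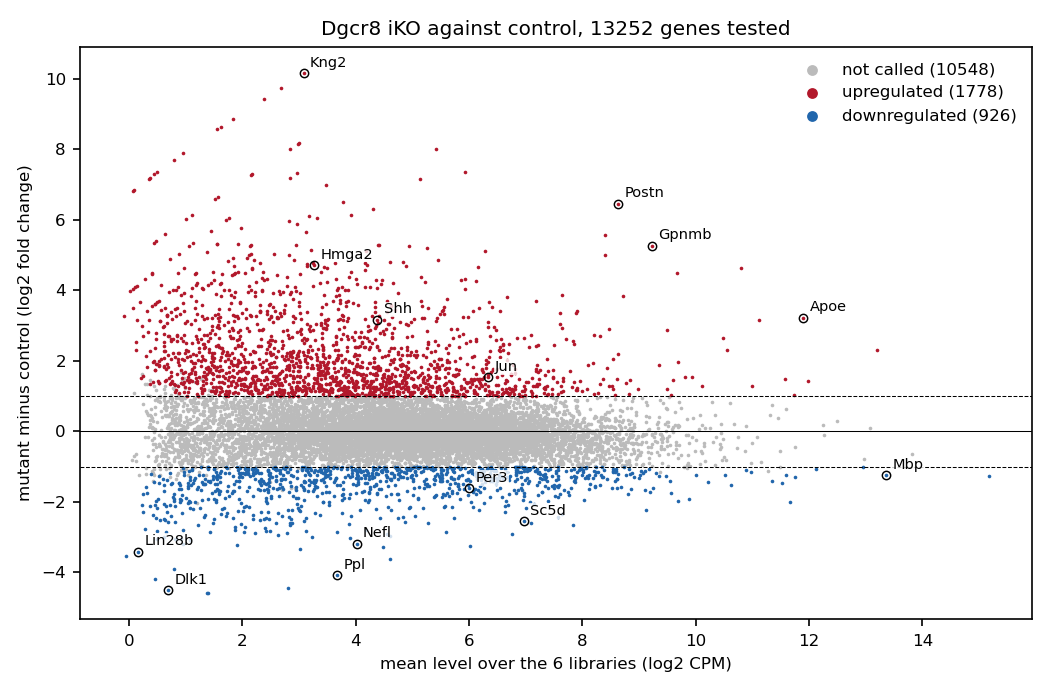
Each point is 1 of the 13252 genes tested, with its mean level over the 6 libraries (log2 CPM) on the x axis and its log2 fold change (mutant minus control) on the y axis. Dashed lines mark a 2-fold change, and the 1778 upregulated genes reach larger changes than the 926 downregulated genes.

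The targeted gene did not separate the groups. Dgcr8 was at 38.7, 35.2 and 42.0 CPM in controls and 39.6, 53.9 and 41.8 CPM in mutants (log2 fold change 0.22, standard error (SE) 0.15, adjusted p = 0.233). The floxed segment is a single exon, so counts summed over the gene do not check the deletion. By quantitative PCR, the study reported lower Dgcr8 mRNA and lower let-7f in nerves of Dgcr8 iKO mice than in controls. The labels do not say whether the same mice were sequenced. Of 18 genes of the miRNA pathway, 17 were tested, 0 were upregulated and 1 was downregulated. Drosha stood at 49.3, 49.0 and 55.3 CPM in controls and 32.3, 22.2 and 32.0 CPM in mutants (log2 fold change -0.83, adjusted p = 0.00136), under the 2-fold limit. Dicer1 (0.12, adjusted p = 0.405), which acts downstream, and the Argonaute gene Ago2 (0.32, adjusted p = 0.194) did not pass the test. The member called was Lin28b, an RNA-binding protein that blocks let-7 maturation, which fell from 1.31, 1.76 and 1.98 CPM to 0.119, 0.0952 and 0.234 CPM (log2 fold change -3.41, SE 0.59, adjusted p = 0.000797), with the mutants below the level of 3 counts.

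Let-7 miRNAs are known for holding down growth genes of the embryo. Among 18 such oncofetal let-7 targets, 14 were tested, of which 7 rose and Lin28b fell, and their median log2 fold change was 0.90 against -0.01 over all genes tested. Hmga2, a chromatin protein of embryonic growth, was at 0.952, 0.406 and 0.625 CPM in controls and 13.5, 13.3 and 27.5 CPM in mutants (4.73, SE 0.42, adjusted p = 1.06e-05). Hmga1, its relative, rose from between 4.33 and 5.71 CPM to between 36.1 and 47.9 CPM (3.05, SE 0.18). Ccnd1, the cyclin that carries cells out of the resting phase, rose from 73.2, 52.9 and 124.8 CPM to 644.1, 571.6 and 655.3 CPM (2.90, SE 0.27, adjusted p = 1.63e-05). The groups stood apart for all of these. Cthrc1, a secreted matrix protein (4.32), E2f2, a cell cycle factor (3.12), Igf2bp2, an mRNA-binding protein (1.69), and Arid3a, a DNA-binding protein (1.25), rose too. Nr6a1 (0.55), Arid3b (0.44), E2f5 (0.35), Ccnj (0.41), Mycn (0.29) and Plagl2 (-0.08) did not pass the test.

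The letters CTACCTC pair with the let-7 seed. They were searched on the transcript strand in the longest annotated 3′ untranslated region of each gene (GENCODE M21, GRCm38), and the first match of called members is given here in capitals within 30 bases, because it marks where let-7 could pair.
Hmga2: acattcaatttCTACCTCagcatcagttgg
Hmga1: ctgttcacaaaCTACCTCtggacggttgtg
Igf2bp2: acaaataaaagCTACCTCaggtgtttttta
Arid3a: caagtttctttCTACCTCaggtcttttgat
E2f2: cctgcatctgtCTACCTCctcacagacaga
Lin28b: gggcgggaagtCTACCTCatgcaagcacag
These windows are chr10:120364213-120364242 (minus strand), chr17:27563281-27563310 (plus), chr16:22059462-22059491 (minus), chr10:79953899-79953928 (plus), chr4:136193043-136193072 (plus) and chr10:45381011-45381040 (minus). Hmga2 held 4 matches and so did Lin28b, which moved in the opposite direction. Nr6a1 held the most of the list, 8 matches, and was not called, whereas Ccnd1 and Cthrc1 held 0 in these regions and rose.

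Predicted let-7 targets differed little from other genes in the share called, but their values leaned to the positive side. The study's list of predicted let-7f targets has 853 genes, 838 of them in these files. Of the 744 tested, 123 rose (16.5%) and 53 fell (7.12%), with a median log2 fold change of 0.15. Of these 744, 445 had a positive value and 299 a negative one, against 6520 and 6732 of all genes tested (median -0.01). For the miR-10 list, 17 of 170 genes tested rose and 10 fell (5.88%), with a median of -0.03, and for miR-143, 27 of 192 rose (14.1%) and 10 fell (5.21%), with a median of -0.06. These shares lay near those of all genes. Positive and negative values numbered 83 and 87 for the miR-10 list and 91 and 101 for miR-143. The lean of a list to either side was not tested. At least 1 let-7 seed match stood in 1387 of 13080 annotated regions (10.6%), and of those genes 14.9% rose and 6.92% fell (median 0.06), against 13.2% and 6.98% of genes with 0 matches (median -0.02). Regions with a match were longer (median 2400 against 1122 bases). Within regions of 1000 to 3000 bases, 15.3% of genes with a match and 13.5% without one rose. For the miR-10 match ACAGGGT the shares that rose in that range were 15.9% with and 13.3% without it. Of the upregulated genes, 207 held a let-7 match and 1546 held none, the rest having no annotated region.

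Genes of the repair SC were upregulated in the mutants. Of 23 genes on the list, 16 were tested, 15 rose and 0 fell, with a median log2 fold change of 3.45. Gdnf, the glial factor that keeps motor neurons alive, was at 0.119, 0.812 and 0.417 CPM in controls and 6.17, 7.33 and 11.8 CPM in mutants (4.23, SE 0.47, adjusted p = 4.96e-05). Shh, a morphogen secreted by repair cells, rose from 3.33, 4.47 and 4.48 CPM to 36.4, 39.5 and 34.8 CPM (3.17, SE 0.17, adjusted p = 7.35e-07). In neither gene did the groups overlap. Btc, an ErbB ligand (6.15, SE 0.52), rose from at most 0.714 CPM to between 17.3 and 45.8 CPM. Timp1, a protease inhibitor (5.29, SE 0.24), rose from at most 1.46 CPM to at least 37.1 CPM. Lingo3, a membrane protein, had 1 count in the controls and 101 in the mutants (ratio 101, 95% counting interval 17.7 to 4030). Sox4 (4.30), the monocyte attractant Ccl2 (4.21), Plau (3.75) and Runx2 (2.41), a transcription factor better known in bone, also rose. Gap43, a growth cone protein, was called (1.79, adjusted p = 0.0163) although its groups overlapped, since mutant 3 held 5.02 CPM and control 1 held 6.55 CPM. Lif, a cytokine on the same list, was at -0.43 (adjusted p = 0.142). The 7 members that were not tested included Fgf5, which was at 0.0, 0.0 and 0.104 CPM in controls and 4.15, 2.48 and 0.818 CPM in mutants, and Olig1, which was at 0 in every control and at 3.68, 1.05 and 0.0 CPM in mutants.

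Genes of the immature, promyelinating SC changed in part. Of 20 listed genes, 18 were tested, 8 rose and 1 fell. Jun, the transcription factor that drives the repair state, rose from 44.2, 42.5 and 37.4 CPM to 130.1, 109.1 and 121.6 CPM (1.54, SE 0.13, adjusted p = 7.44e-06). Sox2, which opposes myelination, rose from 10.6, 6.63 and 9.48 CPM to 33.2, 29.5 and 30.3 CPM (1.79, SE 0.18). Ngfr, the low-affinity neurotrophin receptor, rose from 42.0, 45.8 and 47.7 CPM to 297.3, 215.8 and 217.2 CPM (2.43, SE 0.16, adjusted p = 2.14e-06). Each mutant exceeded each control for these genes. Id2, an inhibitor of basic helix-loop-helix factors, rose more (3.21, SE 0.22), as did Gfap, an intermediate filament (2.62, SE 0.25), while its relative Id1 fell (-1.10, SE 0.18, adjusted p = 0.000514). Egr1 (-0.01), Dhh (-0.20) and Id3 (0.10) did not pass the test.

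Among 15 transcription factors of myelination, only Pou3f1 was called. Pou3f1, the marker of the promyelinating stage, rose from 18.8, 17.6 and 15.4 CPM to 53.8, 44.6 and 53.4 CPM (1.55, SE 0.14, adjusted p = 1.21e-05). Sox10, which defines the lineage, was at 266.6, 261.4 and 270.2 CPM in controls and 256.8, 263.2 and 223.2 CPM in mutants (-0.10, adjusted p = 0.544). Egr2, the master factor of myelination, was at 193.3, 201.7 and 254.3 CPM in controls and 118.0, 144.6 and 95.6 CPM in mutants. Its groups were separate and its test passed (-0.86, SE 0.17, adjusted p = 0.00202), but the change stayed under 2-fold, and without mutant 2 it was called (-1.02).

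Myelin genes fell less than many others, and mutant 3 was the lowest. Of 17 myelin protein genes tested out of 18, 7 fell and 1 rose, with a median log2 fold change of -0.97, and a further 7 passed the adjusted p under the 2-fold limit. Mbp, which compacts the sheath, fell from 15350, 12900 and 16120 CPM to 6873, 7570 and 4288 CPM (-1.24, SE 0.27, adjusted p = 0.00334). Pmp22, the gene of the Charcot-Marie-Tooth duplication, fell from 10780, 10450 and 10870 CPM to 5563, 7109 and 3155 CPM (-1.02, SE 0.29, adjusted p = 0.0149), a call that was lost without control 1 (adjusted p = 0.0516), mutant 1 (adjusted p = 0.053) or mutant 3 (-0.75). The groups did not overlap for Mbp and Pmp22. Drp2, which links the sheath to the basal lamina together with periaxin, fell most (-2.01, SE 0.24), from at least 4945 CPM to at most 1598 CPM. Mpdz, a scaffold protein (-1.34), Ncmap (-1.27), Mal (-1.14) and Prx, periaxin itself (-1.08), fell as well. Mag was at -0.23 (adjusted p = 0.292). Tspan2 rose (1.03, SE 0.24), though not without control 2 (0.86) or mutant 1 (0.80), and Pmp2, a fatty acid carrier of compact myelin, was at 0.97 (adjusted p = 0.00146).

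The authors' TPM values, which are scaled by transcript length and so allow levels of different genes to be compared, put Mbp at rank 2 in controls and 9 in mutants, and Pmp22 at 4 and 10. The gene with the highest TPM in mutants was Apod, a lipid carrier of the nerve, at 30500 ± 2906 TPM (SD, n = 3) against 5734 ± 630.7 TPM in controls, where it ranked 13.

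**Figure D2:**
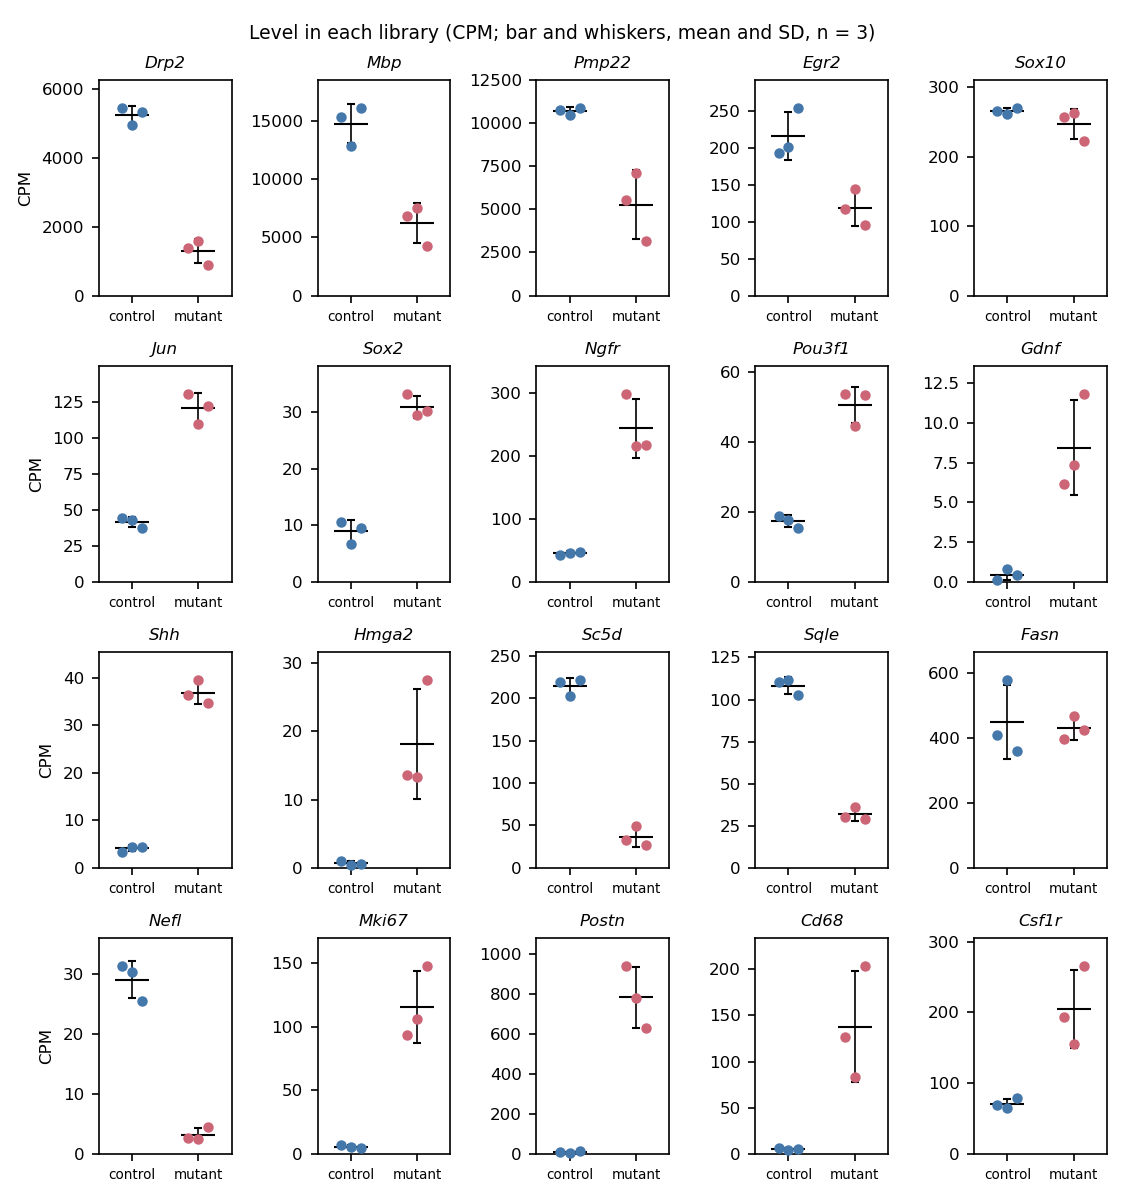
Each panel gives 1 gene in CPM, starting at 0, with 1 point a library for the 3 controls and 3 mutants and a bar with whiskers for the mean and SD. Sox10 and Fasn overlap between the groups, Jun, Ngfr, Shh and Postn are higher in each mutant, and Mbp, Sc5d and Nefl are lower in each mutant.

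Genes of the axon-glia contact were partly reduced. Of 17 tested genes of nodal and paranodal adhesion, 4 fell and 1 rose. Cntnap2, a protein of the juxtaparanode, fell from 5.36, 8.39 and 4.79 CPM to 0.712, 0.857 and 1.05 CPM (-2.79, SE 0.36, adjusted p = 0.00012). In TPM, which is scaled by transcript length, this fall was not seen. Cntnap2 was at 0.99, 1.42 and 0.92 TPM in controls and 1.57, 1.17 and 0.21 TPM in mutants, with overlapping groups. Nfasc, whose glial form anchors the paranode, fell from 431.1, 578.7 and 336.8 CPM to 139.8, 184.2 and 129.2 CPM (-1.57, SE 0.21), and Cntn1 (-1.45) and Cadm3 (-1.29) fell too. Cadm1, a cell adhesion protein, rose (1.02, SE 0.22), but not without control 2, mutant 1 or mutant 2 (0.84 to 0.93). Of 17 potassium channel genes, 2 rose (11.8%) and 4 fell (23.5%), against 13.4% and 6.99% of all genes tested. Kcnj10, the inward rectifier of glia that takes up potassium, rose from 2.26, 1.49 and 2.60 CPM to 57.92, 49.98 and 60.76 CPM (4.70, SE 0.20, adjusted p = 2.87e-07), a separation far wider than the spread within either group. Kcnk1, a leak channel, fell from 226.1, 212.7 and 246.9 CPM to 49.9, 68.2 and 45.1 CPM (-2.07, SE 0.17). Kcnn4, a calcium-activated channel, rose (1.61).

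Genes of cholesterol synthesis fell almost throughout. All 23 listed genes were tested, of which 19 fell and 0 rose, and the median log2 fold change was -1.72. Sqle, the squalene epoxidase, fell from 110.7, 111.4 and 102.6 CPM to 30.03, 36.27 and 28.74 CPM (-1.77, SE 0.13, adjusted p = 3.87e-06). Sc5d, the sterol desaturase, fell from 219.4, 202.8 and 221.3 CPM to 32.4, 49.4 and 27.5 CPM (-2.55, SE 0.20, adjusted p = 5.08e-06). Fdft1, the squalene synthase, fell from 173, 150.3 and 170.3 CPM to 30.7, 46.4 and 23.4 CPM (-2.29, SE 0.21, adjusted p = 1.5e-05). For each of these the mutants lay below every control and mutant 2 was the highest mutant. Srebf2, the transcription factor of the pathway (-1.68), fell as well. Mvk (-0.77) and Acat2 (-0.80) passed the adjusted p under 2-fold, and Ebp (-0.21) and Dhcr7 (-0.20) did not pass. The summed level of the 23 genes was 3949 to 4441 CPM in controls and 941.1 to 1610 CPM in mutants.

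The promoter of Hmgcs1, an early enzyme of the pathway (-1.76, SE 0.29), is shown because its pathway moved together. It is chr13:119690101-119690400 (RefSeq, GRCm38.p6, plus strand, 250 bases before to 50 after the start), with the sterol element core CACCCCAC in capitals.
Hmgcs1: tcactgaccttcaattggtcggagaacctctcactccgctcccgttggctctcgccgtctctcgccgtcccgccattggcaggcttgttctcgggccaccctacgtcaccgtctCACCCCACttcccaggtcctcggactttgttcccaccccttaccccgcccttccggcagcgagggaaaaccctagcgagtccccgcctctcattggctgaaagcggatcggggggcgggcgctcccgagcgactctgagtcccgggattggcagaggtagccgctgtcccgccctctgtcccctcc
On either strand, these letters were found in 2 of 17 promoters at hand for the list, Hmgcs1 and Acat2, and in 2.87% of 32851 promoters.

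Other lipid genes moved less evenly. Of 20 genes of fatty acid synthesis, 6 fell and 2 rose. Fasn, the fatty acid synthase, was at 406.9, 576.4 and 360.7 CPM in controls and 395.6, 466.2 and 425.2 CPM in mutants (-0.06, adjusted p = 0.806), so its groups overlapped, and without control 2 the value was 0.16. Fa2h, which hydroxylates the fatty acids of myelin lipids, fell from 198.8, 278.4 and 172.4 CPM to 68.1, 107.0 and 52.5 CPM (-1.51, SE 0.25). Tecr, of the elongation cycle (-1.25), fell, while Elovl5, an elongase of unsaturated fatty acids (1.48), and Srebf1, their transcription factor (1.01), rose, the latter only narrowly, since it was at 0.81 to 0.98 without control 1, control 3 or mutant 1. Of 18 sphingolipid and galactolipid genes, Ugcg, the glucosylceramide synthase (1.47), and Cers6 (1.45) rose and Degs2 fell (-1.43). Ugt8a, which makes galactosylceramide, was at -0.97 (adjusted p = 0.00758), under the limit. Genes of lipid efflux and uptake went up: 10 of 16 rose and 0 fell, with a median of 1.99. Abca1, the cholesterol exporter, rose from 63.5, 71.6 and 72.8 CPM to 1753, 935.3 and 1977 CPM (4.49, SE 0.28, adjusted p = 1.88e-06), and Apoe, its acceptor, from 920.0, 634.0 and 663.8 CPM to 8540, 4256 and 7933 CPM (3.22, SE 0.30). In both, mutant 2 rose least. The list summed to 5346 to 5976 CPM in controls and to 30940, 21090 and 29650 CPM in mutants, and the macrophage markers, at 469.7 to 549.0 CPM in controls and 6249, 3327 and 8864 CPM in mutants, were likewise lowest in mutant 2 among the mutants. Their part in the change was not tested. Fabp4, a lipid chaperone of fat cells and macrophages, rose from at most 0.952 CPM to at least 15.1 CPM (4.67, SE 0.31).

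**Figure D3:**
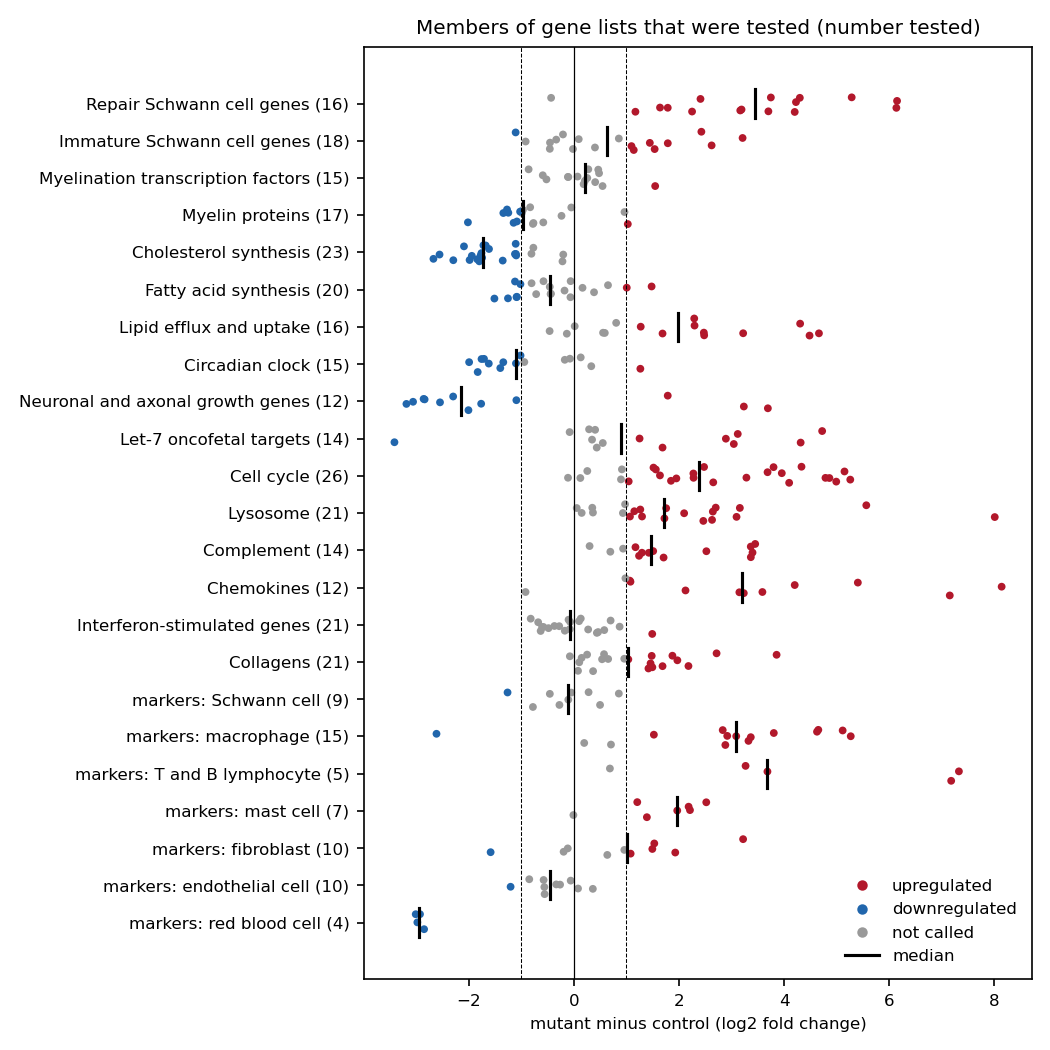
Each point is a tested member of a gene list, placed by its log2 fold change (mutant minus control), with the number tested in parentheses, the median as a vertical bar and dashed lines at 2-fold. Repair SC genes lie right of 0 except for Lif, all 23 cholesterol genes lie left of it, and interferon-stimulated genes scatter around it.

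Most macrophage transcripts increased. Of 15 macrophage markers, all tested, 12 rose and 1 fell, with a median log2 fold change of 3.09. Their summed level was 470.3, 469.7 and 549.0 CPM in controls and 6249, 3327 and 8864 CPM in mutants. In bulk nerve, more cells of a type and more RNA per cell cannot be told apart. Cd68, a lysosomal glycoprotein of phagocytes, rose from 6.07, 4.47 and 5.73 CPM to 126.9, 83.6 and 203.0 CPM (4.65, SE 0.32, adjusted p = 2.64e-06). Csf1r, the receptor macrophages need to survive, rose less, from 69.5, 64.8 and 78.6 CPM to 193.1, 155.7 and 264.8 CPM (1.52, SE 0.19, adjusted p = 8.53e-05). Adgre1, which encodes F4/80, rose from 22.3, 19.8 and 21.6 CPM to 148.7, 107.9 and 214.2 CPM (2.88, SE 0.23). The order mutant 3, mutant 1, mutant 2 recurred in all of these. Gpnmb, a glycoprotein of lipid-laden macrophages (5.27, SE 0.45), and Trem2, a lipid receptor (5.12, SE 0.39), rose most. Cd163, the haemoglobin scavenger of resident macrophages, fell from 58.5, 61.6 and 78.8 CPM to 5.10, 11.8 and 15.5 CPM (-2.61, SE 0.29, adjusted p = 4.63e-05), and Mrc1, the mannose receptor, was at 0.20 (adjusted p = 0.451).

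Many genes that phagocytes express strongly rose in the mutants too, and the part of the macrophage transcripts in their change was not tested. The lysosome, complement, engulfment and chemokine sums were, like the marker sum, highest in mutant 3 and lowest in mutant 2 among the mutants. The MHC class II sum was instead highest in mutant 2, at 700.4, 1198 and 655.2 CPM in mutants. Single genes also departed from this order, such as Ccl8 with 73, 121 and 217 counts in mutants. Of 21 lysosomal genes 15 rose and 0 fell. Atp6v0d2, a proton pump subunit, rose from at most 0.357 CPM to 88.8, 38.2 and 128.4 CPM (8.01, SE 0.58), and Ctss, cathepsin S, from at most 15.5 CPM to 635.1, 395.6 and 947.8 CPM (5.57, SE 0.32). Of 14 complement genes tested, 11 rose and 0 fell, with C3ar1, the C3a receptor (3.45), and C1qc, a subunit of C1q (3.40), first. The engulfment list gave 8 of 15, led by Cd300lf, a lipid receptor that had 3 counts in controls and 194 in mutants (ratio 64.6, 95% counting interval 21.8 to 316.0). Of 12 chemokine genes tested, 10 rose and 0 fell. Cxcl14 rose from at most 0.812 CPM to 73.6, 62.0 and 73.2 CPM (7.16, SE 0.25), and Ccl8 had 1 count in controls and 411 in mutants (ratio 411, 95% counting interval 73.3 to 16300). Cxcl12 was at -0.92 (adjusted p = 0.00227). Of 9 genes for MHC class II, H2-Ob (2.63) and H2-DMb2 (2.16) rose at low levels, the latter not without control 1, control 3 or mutant 2 (adjusted p = 0.0624 to 0.0826), while H2-DMb1 (-1.26, SE 0.15) and H2-DMa (-1.29, SE 0.15), the peptide exchange chaperones, fell. Of 21 interferon-stimulated genes 1 rose, Oas1a (1.49), and 0 fell, with a median of -0.08. Oas1a missed the threshold without control 1 (adjusted p = 0.0555) or control 3 (adjusted p = 0.0554).

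Markers of other blood cells differed. Among 15 lymphocyte markers, 5 passed the filter and 4 rose. Cd4, the coreceptor of helper T cells, had 2 counts in controls and 402 in mutants (ratio 201, 95% counting interval 55.2 to 1660). Cd3g, a T cell receptor subunit, had 0 and 58 counts, at least 19.3-fold higher in mutants against a floor of 3 counts over the control group. Cd4 had 113, 101 and 188 counts in the mutants, in the order of the macrophage markers, and Cd3g had 11, 37 and 10. The T cell genes Cd3d, Cd3e and Trac, which were not tested, were highest in mutant 2, at 2.19, 0.952 and 3.05 CPM. Which cells held the Cd4 transcripts was not tested. Of 8 mast cell markers, 7 were tested and 6 rose, with Cma1 (2.52, SE 0.45), a chymase, and Fcer1a (2.21, SE 0.60), an IgE receptor subunit, first. Fcer1a missed the threshold without control 3 (adjusted p = 0.0568). Of 10 neutrophil markers only Retnlg (0 counts in controls and 45 in mutants) and Cxcr2 were tested, and Cxcr2, a chemokine receptor, fell from 50.6, 60.9 and 25.4 CPM to 7.002, 8.853 and 8.764 CPM (-2.46, SE 0.29). The defining markers Ly6g, Elane, Ngp and Camp were at 0 in all 6 libraries. Globin transcripts fell, with Hbb-bt at -3.01, Hba-a1 at -2.98 and Hba-a2 at -2.92. The controls were uneven for them, Hba-a1 being at 76.1, 9.34 and 43.8 CPM against 4.75, 8.38 and 3.04 CPM in mutants, and near-identical globin genes share reads, so single genes are uncertain. The groups overlapped for Hbb-bt, which missed the threshold without control 1 (adjusted p = 0.0714). In the fit of all 12 libraries none of these 3 passed, with adjusted p = 0.0742 for Hba-a1, 0.0978 for Hba-a2 and 0.137 for Hbb-bt. The 5 red blood cell markers, the globins and Alas2, summed to 45.9 to 363.1 CPM in controls and 10.4 to 35.6 CPM in mutants.

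The markers of SCs themselves were mostly not called. Of 9, 1 fell and 0 rose, and the median was -0.10. S100b, a calcium-binding protein, fell from 1144, 742.1 and 1124 CPM to 475.8, 487.4 and 294.3 CPM (-1.26, SE 0.24). The summed level of the list was 13740 to 14690 CPM in controls and 6380 to 11350 CPM in mutants. Of 10 endothelial markers, Cldn5, the tight junction protein of the blood-nerve barrier, fell (-1.20, SE 0.14) and none rose (0 genes), and Pecam1 was at -0.06. Negative values were held by 8 of the 10 (median -0.44), and a further 4 passed the adjusted p under 2-fold. The endothelial sum was 536.8 to 662.1 CPM in controls and 402.0 to 453.9 CPM in mutants. Plvap, an endothelial gene outside this list, averaged 0.297 TPM in controls and 11.4 TPM in mutants. Of 9 mural cell markers, Cspg4 rose (1.19) and the channel subunits Kcnj8 (-2.33, SE 0.22) and Abcc9 (-1.02, SE 0.19) fell. Without mutant 3, Cspg4 (0.95) and Abcc9 (-0.86) were under the limit, and so was Abcc9 without control 3 (-0.93). Perineurial markers gave 3 of 9 upregulated, with Cldn1, a tight junction protein, at 2.44 and Moxd1 at 2.16. Of the 9, 4 did not pass the adjusted p and 2 had a negative value (lowest -0.81), with a median of 0.51. The summed level of this list overlapped, at 733.6 to 1138 CPM in controls and 683.7 to 930.0 CPM in mutants.

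Fat transcripts set mutant 2 apart. The summed level of 10 adipocyte markers was 88.9, 109.8 and 119.6 CPM in controls and 21.6, 113.0 and 29.1 CPM in mutants. Plin4 made up most of the sum in controls, whereas Cfd was its largest part in mutant 2, so the like sums hide different genes. In controls, Cfd was at most 1.905 CPM, Adipoq at most 0.714 CPM and Cidec at most 0.476 CPM. Among the 7 that were not tested, Cfd, adipsin, was at 45.2 CPM and Cidec, a lipid droplet protein, at 7.71 CPM in mutant 2, and both were at 0 in the other mutants, while Adipoq, adiponectin, was at 7.04 CPM there and at most 0.117 CPM in the others. Of the 3 tested, Pparg rose (2.08), Lipe was at -0.12, and Plin4, a lipid droplet protein, fell from 69.4, 97.5 and 103.8 CPM to 6.65, 28.2 and 13.7 CPM (-2.46, SE 0.37). Without mutant 2, Plin4 was at -3.15 and Pparg at 2.10. Of 11 muscle markers 2 were tested, and Pvalb fell at low levels (-2.85).

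**Figure D4:**
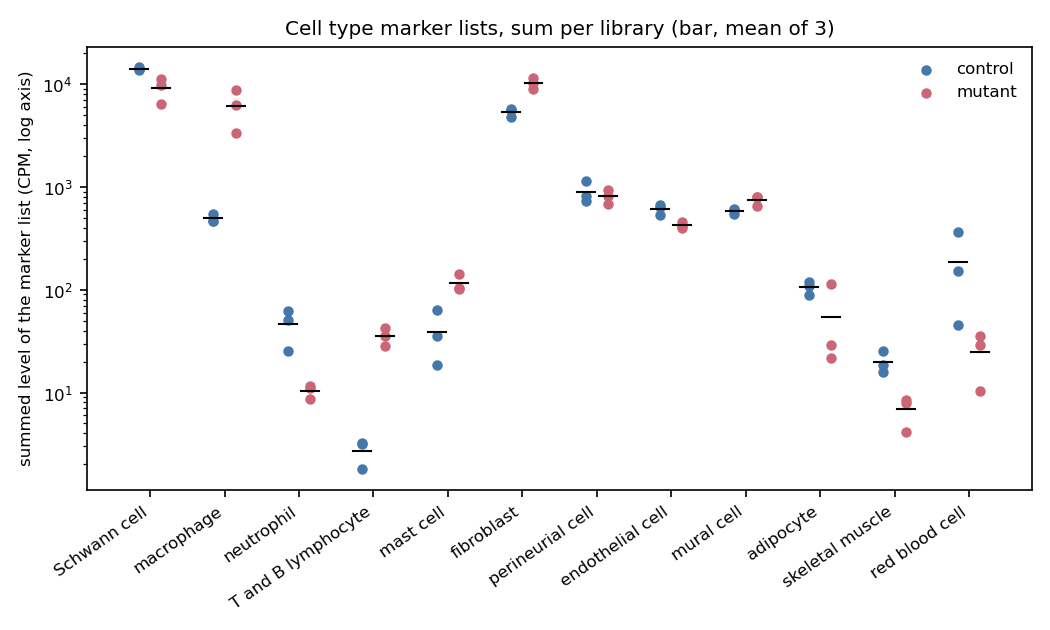
Each point is the summed CPM of a marker list in 1 library, on a log axis, for 3 controls and 3 mutants, with bars for the means. The macrophage sum is 3327 to 8864 CPM in mutants and 469.7 to 549.0 CPM in controls, and the red blood cell sum is lower in each mutant than in each control.

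Genes of cell division rose almost throughout. Of 26 cell cycle genes 21 rose and 0 fell, with a median of 2.38. Mki67, the proliferation marker, rose from 7.02, 5.42 and 4.79 CPM to 93.9, 106.0 and 147.6 CPM (4.33, SE 0.22, adjusted p = 5.08e-07). Top2a, the mitotic topoisomerase, rose from 2.86, 4.33 and 1.67 CPM to 75.0, 77.1 and 100.3 CPM (4.87, SE 0.26). The kinase Bub1 (5.26, SE 0.51) and the cyclin Ccnb1 (5.15, SE 0.39), both of mitosis, rose most. Which cells divided cannot be read from whole nerve. Pcna (0.26), Tyms (0.13) and Mcm4 (-0.11) did not pass. Of 14 genes for D cyclins and CDK inhibitors, 7 rose, with Ccnd1 and E2f1 (2.42) first, and both Cdkn2a (1.82) and Cdkn2b (1.96), which stop the cycle, were among them, while Cdkn1b was at -0.86 (adjusted p = 0.00423) and Cdkn1a at -0.79 (adjusted p = 0.0052). Of 14 genes induced by ERK signalling, 5 rose, with the phosphatases Dusp5 (2.41) and Dusp4 (1.30) first. ErbB ligands went both ways: Btc and Nrg1 (1.37) rose and Tgfa fell from 124.3, 139.0 and 160.5 CPM to 46.2, 56.1 and 36.3 CPM (-1.61, SE 0.17).

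Many genes of the extracellular matrix rose. Postn, a matricellular protein of growing and injured tissue, rose from 7.74, 6.36 and 12.3 CPM to 938.3, 781.9 and 631.5 CPM (6.46, SE 0.28, adjusted p = 2.87e-07). Of 14 matricellular genes tested, 7 rose, Thbs2, an inhibitor of angiogenesis, being next (3.85, SE 0.19), and Ccn1 fell (-1.22, SE 0.19). Of 21 collagen genes 11 rose and 0 fell. Col1a1, of the major fibrillar collagen, rose from 1541, 2042 and 1227 CPM to 3973, 3913 and 5682 CPM (1.496, SE 0.25, adjusted p = 0.00063). Col8a1 (3.86, SE 0.18) and Col28a1, a collagen of the peripheral nerve (2.72, SE 0.16), rose most. Of the basement membrane collagens, Col18a1 rose (2.18, SE 0.16), while Col4a1 (0.11, adjusted p = 0.645) and Col4a2 (0.25, adjusted p = 0.239) did not pass. Of 19 proteases and inhibitors tested 13 rose, among them Mmp8 (4.46), and Mmp9 fell (-1.19, adjusted p = 0.0161) although its groups overlapped, and missed the threshold without control 1, control 3 or mutant 1 (adjusted p = 0.0602 to 0.0742). Of 19 laminin and integrin genes 6 rose, with Lama1 (3.27) and Itgb3 (2.36) first. Of 10 fibroblast markers, 5 rose, with Pi16 (3.22) and Fbln1 (1.93) first, and Mfap5, of elastic microfibrils, fell from 671.2, 542.3 and 625.8 CPM to 181.5, 301.4 and 131.6 CPM (-1.58, SE 0.26).

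Of 17 Wnt and Notch genes tested 8 rose and 1 fell, with a median of 0.82. Wif1, a Wnt inhibitor, had 2 counts in controls and 378 in mutants (ratio 189, 95% counting interval 51.9 to 1570). Sfrp1, another, rose from at most 3.96 CPM to at least 29.6 CPM (3.28, SE 0.19), and Frzb, a related antagonist, fell (-1.31, SE 0.20). In the hedgehog list, Shh rose while its receptor Ptch1 (0.08, adjusted p = 0.794) and the target Gli1 (-0.50, adjusted p = 0.149) did not pass, and Gli2 fell (-1.09, adjusted p = 0.0373) with overlapping groups, a call lost without control 1, control 2, mutant 1 or mutant 2 (adjusted p = 0.0518 to 0.195). Among 15 imprinted growth genes tested, 2 rose and 2 fell (13.3% each, against 13.4% and 6.99% of all genes tested). Peg10 (1.49) and Igf2r (1.20), which clears insulin-like growth factor 2, rose. Igf2 itself fell from 19.6, 32.4 and 17.7 CPM to 2.02, 9.33 and 7.13 CPM (-1.89, SE 0.40, adjusted p = 0.00287), and Dlk1, a Notch-like protein, dropped from 70 counts in the controls to 3 in the mutants (ratio 23.4, 95% counting interval 7.67 to 116.0). Among 12 Hox genes only Hoxa7 was called (-1.19, adjusted p = 0.0442), and only mutant 1 could be left out without losing it. Of 28 protein-coding host genes of miRNAs, Evl rose (1.16) and Arpp21 (-1.98), Igf2 and Slit3 (-1.03) fell, and 24 were not called. These were 3.57% up and 10.7% down.

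Genes of the unfolded protein response mostly lay above 0. Of 15 tested, 14 had a positive log2 fold change, 3 rose (20.0%), 0 fell and a further 7 passed the adjusted p under the 2-fold limit, with a median of 0.54. Their summed level was 1440 to 1837 CPM in controls and 2607 to 2762 CPM in mutants. Sdf2l1 (2.34), Asns (1.16) and Hspa5 (1.06) rose, Asns not without mutant 1 (0.95). Of 20 glycolytic genes, Slc16a3, a lactate exporter (2.12), and Hk2, a hexokinase (1.55), rose, and Aldoc (-2.36) and Ldhb (-1.30) fell.

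Most neuronal genes fell. Of 14 neuronal and axonal genes, 12 were tested, 9 fell and 3 rose, with a median of -2.15. Nefl, the light neurofilament subunit, fell from 31.3, 30.5 and 25.5 CPM to 2.73, 2.48 and 4.44 CPM (-3.18, SE 0.22, adjusted p = 3.14e-06). The medium (Nefm, -2.29) and heavy (Nefh, -2.86) subunits, peripherin (Prph, -2.00), Snap25 (-2.54) and Syt1 (-3.06), both of synaptic vesicle fusion, and Stmn2 (-1.76), of axon growth, fell with it. For each of these every mutant lay below every control. Uchl1 (-1.09), a deubiquitinase of neurons, and Elavl2 (-2.84), an RNA-binding protein, completed the fall. Besides Gap43, the members that rose were Syt4, a synaptotagmin, and Tubb3, a tubulin of neurons, Syt4 from 23.0, 19.6 and 20.1 CPM to 220.2, 224.1 and 368.5 CPM (3.69, SE 0.22) and Tubb3 from 11.3, 7.04 and 15.2 CPM to 97.8, 83.4 and 139.6 CPM (3.24, SE 0.26).

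The rule for naming took called genes with a mean level of at least 1 log2 CPM whose groups did not overlap. Separation of the groups was thus part of the choice. The 15 largest falls among these genes were led by Crygs, a lens crystallin (-4.59), and Hrk, a cell death gene of neurons (-4.58). Next came Retnla, a resistin-like protein (-4.43), and Ppl. Ppl, periplakin, a linker of the cytoskeleton to junctions, fell from 16.6, 23.0 and 32.0 CPM to 1.42, 0.857 and 1.99 CPM (-4.09, SE 0.33, adjusted p = 7.13e-06). Nrxn2, a neurexin of synaptic adhesion, fell from 42.6, 53.2 and 40.0 CPM to 3.09, 3.90 and 3.97 CPM (-3.62, SE 0.18, adjusted p = 5.08e-07), and Kcnt1, a sodium-activated potassium channel, from 34.0, 47.9 and 39.9 CPM to 4.04, 4.09 and 4.32 CPM (-3.29, SE 0.18). For both, the mutants were close to each other and far below the lowest control. Etnppl, an enzyme that breaks down phosphoethanolamine, fell from 85.1, 80.2 and 184.6 CPM to 13.4, 12.7 and 10.4 CPM (-3.26, SE 0.31). Lrp1b (-3.35), Ttll6 (-3.22), Nefl, A830018L16Rik (-3.08), Stmn3, a stathmin (-3.03), Grip1, a receptor scaffold (-2.93), and the globins Hba-a1 and Hba-a2, whose calls were lost in the fit of all 12 libraries, completed the 15. Retnla was at 3.33, 31.7 and 6.04 CPM in controls, so that control 2 set most of its mean.

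Most of the 15 largest rises, chosen by the same rule, were genes at or near 0 counts in controls. For Kng2, a kininogen with a close relative, 0 counts in controls stood against 437 in mutants, at least 145.6-fold higher. Nr1h4, the bile acid receptor, had 0 and 332 counts (at least 110.6-fold higher). Cd200r4 (at least 88.3-fold), Mmp27 (at least 59.0-fold), the histone gene Hist1h2ah (at least 51.0-fold) and Clec4d, a lectin of myeloid cells (at least 48.3-fold), were also at 0 in every control. Htr2b, a serotonin receptor, and Havcr2, an immune checkpoint, had 1 count in controls and 408 and 372 in mutants (ratios 408, 95% counting interval 72.8 to 16100, and 372, interval 66.3 to 14700). Mcoln3, a lysosomal channel (ratio 226, interval 40.1 to 8960), and Saa1, an acute phase protein (ratio 222, interval 39.4 to 8800), had 1 count in controls as well. Itgax, an integrin of dendritic cells and macrophages, rose from 0.238, 1.35 and 0.625 CPM to 96.5, 55.4 and 209.4 CPM (7.37, SE 0.62). Ccl8, Atp6v0d2, Cd4 and Wif1 were the others.

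Genes of the circadian clock fell together. The clock is a feedback loop in which Clock with Arntl or Npas2 activates the Per, Cry and Nr1d genes, whose products turn the activators off, and Dbp, Hlf and Tef pass the rhythm on. Of 15 genes, all tested, 9 fell and 1 rose, with a median of -1.10. Per3 fell from 91.4, 113.3 and 85.1 CPM to 28.7, 34.1 and 31.6 CPM (-1.62, SE 0.14, adjusted p = 1.06e-05). Nr1d1 fell from 55.5, 86.1 and 56.5 CPM to 9.85, 23.8 and 21.7 CPM (-1.83, SE 0.28). Neither overlapped between groups. Ciart, a clock repressor (-1.99, SE 0.34), Per2 (-1.75), Hlf (-1.71), Dbp (-1.40), Cry2 (-1.34), Per1 (-1.10) and Nr1d2 (-1.01) fell as well, and the groups overlapped for Per1. The activators moved differently: Npas2 rose at low levels (1.27, adjusted p = 0.014), but not without control 1, control 3 or mutant 1 (adjusted p = 0.0565 to 0.0716), and Arntl (0.33) and Clock (0.13) did not pass. These genes vary with the hour of the day, and the labels give no hour of sampling, so hour and genotype cannot be told apart.

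The promoter of Per3 is shown because this gene also differed between the effects of Dgcr8 and Dicer loss. It is chr4:151044616-151044915 (RefSeq, GRCm38.p6, minus strand), with each D-box TTATGTAA, the element that Dbp, Hlf and Tef bind, in capitals.
Per3: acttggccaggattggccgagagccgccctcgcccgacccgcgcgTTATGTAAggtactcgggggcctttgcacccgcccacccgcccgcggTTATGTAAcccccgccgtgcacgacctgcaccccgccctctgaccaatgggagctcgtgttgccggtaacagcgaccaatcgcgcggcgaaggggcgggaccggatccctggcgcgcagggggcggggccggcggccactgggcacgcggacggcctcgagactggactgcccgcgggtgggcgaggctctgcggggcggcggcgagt
Searched on both strands, it held 2 matches. A match stood in 1 of 14 clock promoters at hand and in 0.938% of all 32851.

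The Dgcr8 effect was compared with that of Dicer loss under the same Cre, in 3 mutant and 3 control libraries of P0-CreERT2 Dicer1 flox/flox mice at 3 mpT that share no sample with the 6 above. The difference of the effects was tested as an interaction over the 12 libraries. Of 13552 genes 2 were called (0.0148%), 1 in each direction. An unadjusted p under 0.05 in the same edgeR test was held by 1859, of which 1037 had a more positive value for Dgcr8. DESeq2's Wald test called 170 with a more positive and 65 with a more negative value for Dgcr8. Plvap, the diaphragm protein of fenestrated endothelium, was at 0.24, 0.27 and 0.41 CPM in Dgcr8 controls and 9.4, 13.8 and 8.9 CPM in Dgcr8 iKO, against 1.4, 1.2 and 0.68 CPM in Dicer controls and 1.9, 1.2 and 0.83 CPM in Dicer iKO (difference 4.78, SE 0.62, adjusted p = 0.0462). Only the Dgcr8 mutants stood apart. Per3 was at 90.7, 114 and 84.7 CPM and 28.6, 34.2 and 31.5 CPM in the Dgcr8 pair, and at 118, 125 and 142 CPM and 104, 102 and 96 CPM in the Dicer pair (difference -1.27, SE 0.18, adjusted p = 0.0495). Dicer iKO lay below its controls too, by less. Both calls lay close to the threshold. Leaving out any 1 library ended the call for Per3 except for Dgcr8 control 3 or Dicer control 3, and for Plvap except for these or Dicer mutant 1.

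Other members of the lists differed without passing. Ciart had a difference of -2.07 (adjusted p = 0.144), being at 8.42 CPM in Dicer controls and 8.91 CPM in Dicer iKO, and Nr1d1 had -1.98 (adjusted p = 0.155). The cohorts also differed in their controls, with Arntl, which cycles opposite to the Per and Nr1d genes, at 21.1 ± 3.19 CPM (SD, n = 3) in Dgcr8 controls and 6.66 ± 1.95 CPM in Dicer controls. Ngfr (1.06, adjusted p = 0.225), Mki67 (1.56, adjusted p = 0.17) and Nefl (-1.58, adjusted p = 0.274) had larger changes in Dgcr8 iKO but were not called. Egr2 (0.05, adjusted p = 0.964) and Gdnf (-0.27, adjusted p = 0.906) had smaller differences. A miss of the threshold does not show that the effects are alike.

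**Figure D5:**
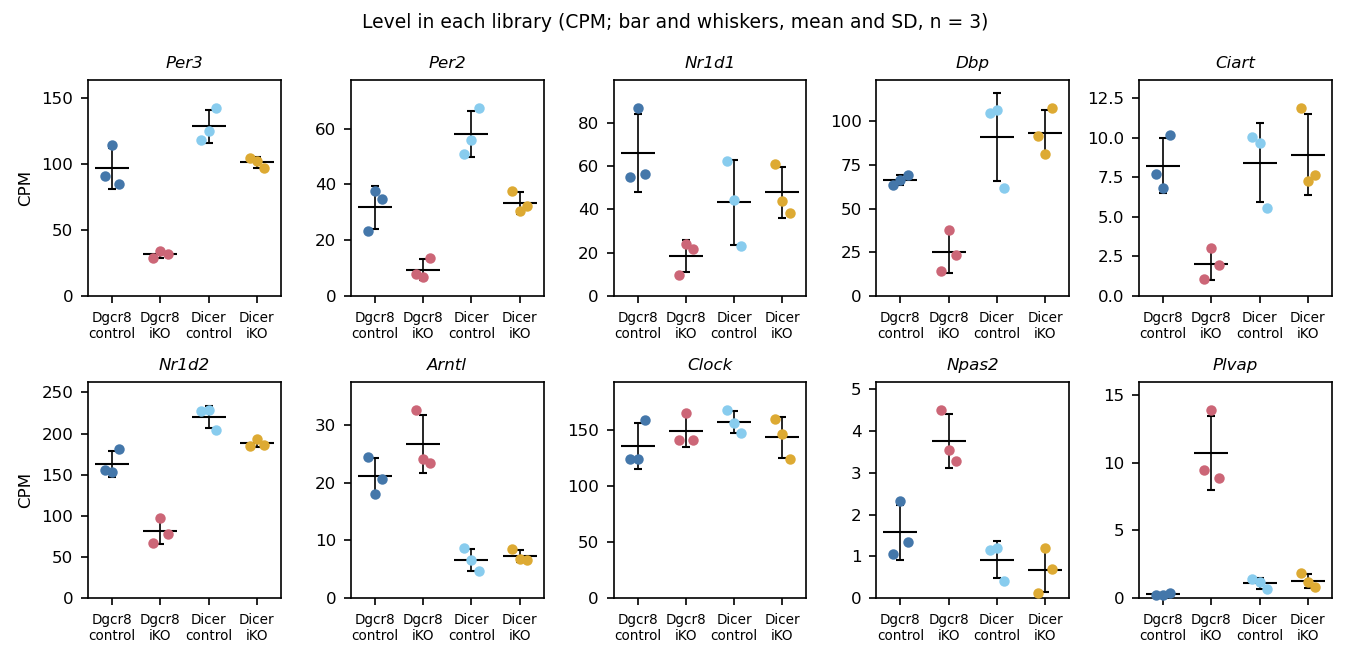
Each panel gives 1 gene in CPM, starting at 0, for 3 libraries in each of the Dgcr8 control, Dgcr8 iKO, Dicer control and Dicer iKO groups, with bars and whiskers for mean and SD. Per3 is lowest in Dgcr8 iKO, Plvap is high only there, and Arntl and Clock overlap between Dgcr8 iKO and its controls.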

How the data were processed

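Total RNA of SNs was read from 6 Dgcr8 and, for 1 comparison, 6 Dicer libraries. The authors trimmed reads with Trimmomatic, aligned them with STAR to Ensembl GRCm38 and quantified transcripts with RSEM. The authors deposited RSEM's expected counts, estimated counts of each transcript without normalization, which were summed per gene and rounded. The authors' TPM values, scaled to length and depth, were summed per gene and used to compare levels between genes and, for Cntnap2, between libraries. The strand setting of the counting is not given in the sources used here, so overlapping antisense genes are uncertain.

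R 4.3.3 with edgeR 4.0.16 (filterByExpr with minimum count 10, TMM, quasi-likelihood test, BH) was used, and DESeq2 1.42.0 as an alternative. CPM values are scaled by TMM, within the 6 libraries or, for the comparison with Dicer, the 12. SE was derived from the F statistic and the log2 fold change. In simulated data 196 of 200 changed genes were recovered with 4 false calls among 13125 genes, and for the interaction 182 of 200 with 8 among 13370. Each changed gene was shifted by 2 on the log2 scale, up or down, and genes at low levels were not among them. Recovery of smaller changes was not simulated, so these shares do not give the power for them. Positions are from GENCODE M21, which held 22570 of 22880 genes. The gene list is almost entirely protein-coding and holds 0 Mir symbols, and H19, a key gene of the rule, was not analysed here. The replicate libraries were not copies of each other (chi-square per degree of freedom of at least 4.51 for each pair within a group). Labels do not say how animals were related. Of the predicted target lists only those complete in the study's files were used.

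Named genes are key genes of the study, the 15 largest changes in each direction among called genes without overlap that averaged 1 or more in log2 CPM, up to 2 called members per list and direction, and up to 3 per direction for the interaction. Other list members named were chosen after their values were seen. Members and lists were chosen with earlier results of these data known. Alternatives were RLE, no filter (at least 1 count), at least 10 counts in every library, a replicate block, DESeq2, edgeR's exact test, all 12 libraries in 1 fit, protein-coding genes, an adjusted p of 0.01, and each library left out. Some genes that the rule names are not reported here.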

Additional observations from a re-analysis of the deposited data

Results flagged for a closer look

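Per3 and Plvap were the genes whose Dgcr8 effect differed from the Dicer effect by the interaction test. The difference was -1.27 on the log2 scale for Per3 and 4.78 for Plvap. For each, all 3 Dgcr8 iKO libraries lay on 1 side of all 9 other libraries. The hour of sampling, which bears on Per3, is not in the labels, and its part was not tested. Groups held 3 libraries each, too few to test a single library for standing apart.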

How the results depend on the processing

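Counts of calls in Dgcr8 iKO moved by less than 1.5 times under each alternative, from 1255 to 2004 upregulated and from 723 to 1100 downregulated genes. The comparison of the Dgcr8 and Dicer effects was less stable. Called genes whose Dgcr8 effect was more positive and more negative than the Dicer effect numbered 17 and 3 without the filter on low counts. They were 170 and 65 by DESeq2, 1 and 0 with RLE, and 0 and 0 with at least 10 counts in every library. At an adjusted p of 0.01 they were 0 and 0. A more negative difference does not mean a smaller effect, since Per3 fell more in Dgcr8 iKO. Leaving out 1 library gave 0 to 320 and 0 to 81 genes, the highest without Dicer control 3. Without Dgcr8 control 3 the counts were 3 and 2, and without Dicer mutant 1 they were 2 and 0. The causes were not tested. Fasn turned from -0.06 to 0.16 without control 2, and leaving out 1 library gave -0.21 to 0.16. Of the other values of named genes for Dgcr8 iKO under alternatives, 2252 kept direction and side of the threshold, 55 lost the call and 2 gained it. Fitted with all 12 libraries, Fcer1a, Hba-a1, Hba-a2 and Hbb-bt lost theirs. Depth limits what can be said of genes under 1 CPM.

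Same-numbered control and mutant samples did not deviate together (r = 0.13, -0.11 and -0.17), so the numbers were not taken as pairs. With the replicate block 1738 genes were upregulated and 926 downregulated, Cadm1, Gli2 and Srebf1 lost the call, and the comparison with Dicer gave 0 and 0 genes.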
